A study of Mus musculus with 22 samples.

Results

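The 10 genes described here encode proteins of the BCL2 family, which decides whether the outer mitochondrial membrane stays intact or is opened during apoptosis. They were chosen by name, with earlier results of these data known. They are Bcl2, Bcl2l1, Bcl2l2, Mcl1, Bak1, Bok, Bid, Bad, Bcl2l11 and Bnip3, 10 of the 24411 genes listed in each of 2 deposited tables. The family has guardians (BCL2, BCL-xL, BCL-w and MCL1) that bind and restrain pro-death members, effectors (BAK, BAX and BOK) that perforate the membrane, and BH3-only proteins (BID, BAD and BIM here) that free or activate the effectors. BNIP3 carries a BH3-like stretch and is best known as a mitochondrial receptor for autophagy that is induced in low oxygen. In neural progenitors the balance between guardians and effectors is known to set how many cells survive, and MCL1 is the guardian on which they are known to rely.

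RNA was sequenced in 22 libraries of primary neural stem cells of the adult mouse hippocampus, kept in EGF and bFGF on coated plates. O-GlcNAc transferase (OGT), the enzyme that attaches the O-GlcNAc sugar to proteins inside the cell, was targeted in 2 ways. In the knockdown table, 5 libraries came from cells given lentivirus that encodes a short hairpin RNA against Ogt (ShOgt, replicates 1, 2, 3, 5 and 6) and 6 from cells given a hairpin named for luciferase (ShLuc). Both received 10 viral particles for each cell, and RNA was taken after 3 days. In the OSMI-1 table, 5 libraries came from cells given the OGT inhibitor OSMI-1 at 12.5 µM for 24 h (replicates 1, 2, 4, 5 and 6), and 6 from cells given the same volume of the solvent DMSO (vehicle). All groups shared the growth medium, and the labels give no strain and no age beyond adult. They do not say how many hairpins against Ogt were used or whether replicates were separate animals or cultures, so the p-values measure the spread between libraries, which may be technical.

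Depth, as reads recovered from the values, was 7.22 to 11.2 M reads a library in ShOgt and 9.85 to 13.2 M in ShLuc, and 4.59 to 12.8 M in OSMI-1 and 4.52 to 5.93 M in vehicle. These depths include the ribosomal precursor Rn45s, at 0.921 to 1.25% of reads in the knockdown table and 4.81 to 14.2% in the OSMI-1 table. The part of depth in the number of calls per table was not tested. Values below are the deposited normalized counts (reads divided by a size factor for each library); each table has its own normalization, and levels are compared within a table. Ogt itself averaged 424 ± 63.9 in ShOgt and 836 ± 89.8 in ShLuc (SD, n = 5 and 6), with no overlap, and 599.9 ± 42.5 in OSMI-1 and 455 ± 37.6 in vehicle, again with no overlap. On principal components ShLuc 1, ShLuc 3, ShOgt 3, vehicle 1 and OSMI-1 5 stood apart. Of 10 neural stem cell markers 8 passed the filter on low counts in the knockdown table and 7 in the OSMI-1 table, whereas none of 10 microglial markers did, with Cx3cr1, C1qa and C1qb at 0 throughout the knockdown table. Of 8 neuron markers 4 passed in each table, and of 6 astrocyte markers 4 (knockdown) and 3 (OSMI-1). Summed neuron markers ranged from 3024 to 3449 in ShOgt and 3271 to 4038 in ShLuc. In OSMI-1 they ranged from 2132 to 2994 and in vehicle from 1785 to 2303. Summed astrocyte markers ranged from 5326 to 6309 in ShOgt and 5399 to 6035 in ShLuc. In OSMI-1 they ranged from 2637 to 3148 and in vehicle from 2831 to 3204. The summed neural stem cell markers ranged from 32496 to 38179 in ShOgt and 36130 to 41136 in ShLuc, and from 16442 to 18255 in OSMI-1 and 21761 to 26328 in vehicle. The summed markers of the oligodendrocyte lineage (8 genes, of which 4 passed the filter in the knockdown table and 5 in the OSMI-1 table) ranged from 10012 to 11543 in ShOgt and 17783 to 20743 in ShLuc, and from 10944 to 14664 in OSMI-1 and 9718 to 12284 in vehicle. Most of this sum was 1 gene, Olig1, at 9477 to 10997 in ShOgt and 16661 to 19725 in ShLuc, and at 10214 to 14039 in OSMI-1 and 9163 to 11604 in vehicle. The median of the 8 marker means ran the other way, at 12.5 in ShOgt and 8.61 in ShLuc, and at 8.07 in OSMI-1 and 15.7 in vehicle. Mog, a defining marker of mature oligodendrocytes, was at 0 in every knockdown-table library. The part of these differences in summed markers in the results below was not tested, and in bulk RNA fewer cells of a type cannot be told apart from less RNA per cell.

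After Ogt knockdown 3 of the 4 guardian genes, Bcl2l1, Mcl1 and Bcl2l2, rose, and so did the autophagy receptor gene Bnip3. No effector or BH3-only member passed the test. Outside the 10 names, however, the effector gene Bax and the BH3-only gene Pmaip1 rose (log2 fold change 0.54 and 0.80). Bcl2l13, also outside them, fell (-0.47). Of the 10 members 4 were higher and 0 lower at an adjusted p under 0.05 (limma on log2(normalized count + 1), Benjamini-Hochberg over 12136 genes), beside a background of 31.8% of all tested genes called, 15.4% higher and 16.4% lower. The members' median log2 fold change was 0.21, against 0.01 over all tested genes, and 8 of the 10 lay above 0. Unadjusted, 4 members had limma p below 0.05. Over all genes 5031 of 12136 did, so the members' share lay near that background. The quasi-likelihood test of edgeR on the recovered reads also called 4 members (31.7% of all genes).

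After OSMI-1 a different member stood out. Bok, the effector related to BAX and BAK, fell, and none of the other 9 members passed the test. That is 0 higher and 1 lower of 10, beside a background of 24.8% of 11349 tested genes called, 11.6% higher and 13.2% lower, so the members' share lay below that of all genes. Their median log2 fold change was 0.09, against 0.00 over all tested genes. Unadjusted, 4 members had limma p below 0.05 (Bok, Bad, Bak1 and Bcl2l1). Over all genes 4038 of 11349 did, so the members' share lay near that background. Of these 4, Bak1 passed the filter on low counts through its vehicle values. In edgeR 1 member was called (24.7% of all genes).

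**Figure D1:**
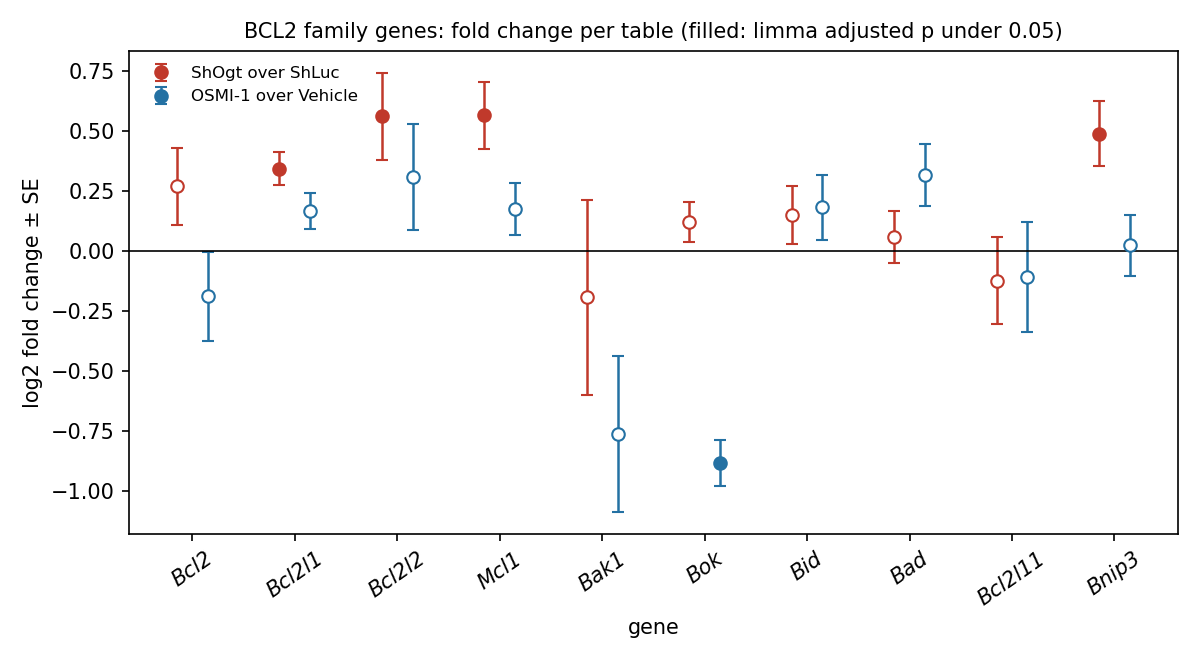
Log2 fold change with its SE for the 10 members, ShOgt over ShLuc (red) and OSMI-1 over vehicle (blue), with filled points where the limma adjusted p was under 0.05. The 3 filled guardians Bcl2l1 (0.34), Bcl2l2 (0.56) and Mcl1 (0.57) and Bnip3 (0.49) lie above 0 after knockdown, and Bok (-0.88) is the filled point after OSMI-1.

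Among the guardians, Bcl2l1 encodes BCL-xL and had the highest level of the 10 members. Bax, a family gene outside the 10, was higher, at 6523 ± 769 in ShOgt and 4499 ± 633 in ShLuc. Bcl2l1 lies on chr2:152780668-152831728 (GRCm38, minus strand). It stood at 4004, 3503, 3683, 3337 and 3416 in the ShOgt libraries, against 2609, 2842 and 3062 (lowest, median and highest) in the ShLuc libraries. Every ShOgt library lay above every ShLuc library, the only such separation among the members in this table, where 8.83% of all tested genes were separated upward, 9.96% downward and 18.8% in either direction. The mean was 3588 ± 266 in ShOgt and 2826 ± 185 in ShLuc, a rise of 26.9% (log2 fold change 0.34 ± 0.07 SE, limma adjusted p = 0.00063). In the OSMI-1 table it stood at 1500, 1723, 1556, 1502 and 1308 in OSMI-1, against 1192, 1368 and 1472 in vehicle. Those groups overlapped through OSMI-1 6, and the difference missed the threshold (0.17 ± 0.07, limma adjusted p = 0.115). Without OSMI-1 6 it passed (0.22, limma adjusted p = 0.038).

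Mcl1 encodes a short-lived guardian that is removed by ubiquitin ligases, and lies on chr3:95658788-95663176 (plus strand). It stood at 259, 234, 244, 267 and 287 in ShOgt, against 145, 169 and 237 in ShLuc. A single ShLuc library, ShLuc 4 at 237, reached into the ShOgt range. The means were 258 ± 20.6 in ShOgt and 176 ± 33.2 in ShLuc (0.57 ± 0.14, limma adjusted p = 0.0039). After OSMI-1 it stood at 219, 217, 199, 187 and 234, against 173, 181 and 217 in vehicle, with means of 211 ± 18.1 in OSMI-1 and 187 ± 16 in vehicle (0.18 ± 0.11, limma adjusted p = 0.25). All 5 OSMI-1 libraries lay above the vehicle mean, and OSMI-1 1 and 6 also above the highest vehicle library.

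Bcl2l2, which encodes BCL-w, a guardian known for its role in the brain and testis, lies on chr14:54883377-54888234 (plus strand). It stood at 130, 111, 164, 116 and 182 in ShOgt, against 71.6, 94.0 and 114 in ShLuc. ShOgt 3 and ShOgt 6 were highest, and the groups overlapped at ShOgt 2. The means were 141 ± 30.9 in ShOgt and 94.3 ± 15.2 in ShLuc (0.56 ± 0.18, limma adjusted p = 0.023). Leaving out ShLuc 6 (0.055), ShOgt 3 (0.056) or ShOgt 6 (0.074) raised the adjusted p above 0.05. Its exons share 594 bases with Gm20521 on the same strand, so reads of the pair could have been split. After OSMI-1 it stood at 72.9, 43.6, 40.5, 51.3 and 59.6, against 26.7, 43.1 and 57.6 in vehicle, and did not pass (0.31 ± 0.22, limma adjusted p = 0.34).

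Bcl2, the founding guardian, was at low level, on chr1:106538178-106714274 (minus strand). It stood at 114, 137, 133, 125 and 126 in ShOgt, against 87.4, 105 and 136 in ShLuc (0.27 ± 0.16, limma adjusted p = 0.22). After OSMI-1 the values were 53.8, 74.0, 74.4, 103 and 59.6, against 59.3, 80.6 and 106 in vehicle (-0.19 ± 0.19, limma adjusted p = 0.50). Of the 6 ShLuc libraries 4 lay below every ShOgt library, and ShLuc 4 and 6 lay within the ShOgt range. In the OSMI-1 table the groups overlapped over most of their range. An opposite-strand gene, D630008O14Rik, shares 558 exonic bases with Bcl2, and whether counting used strand is not stated.

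**Figure D2:**
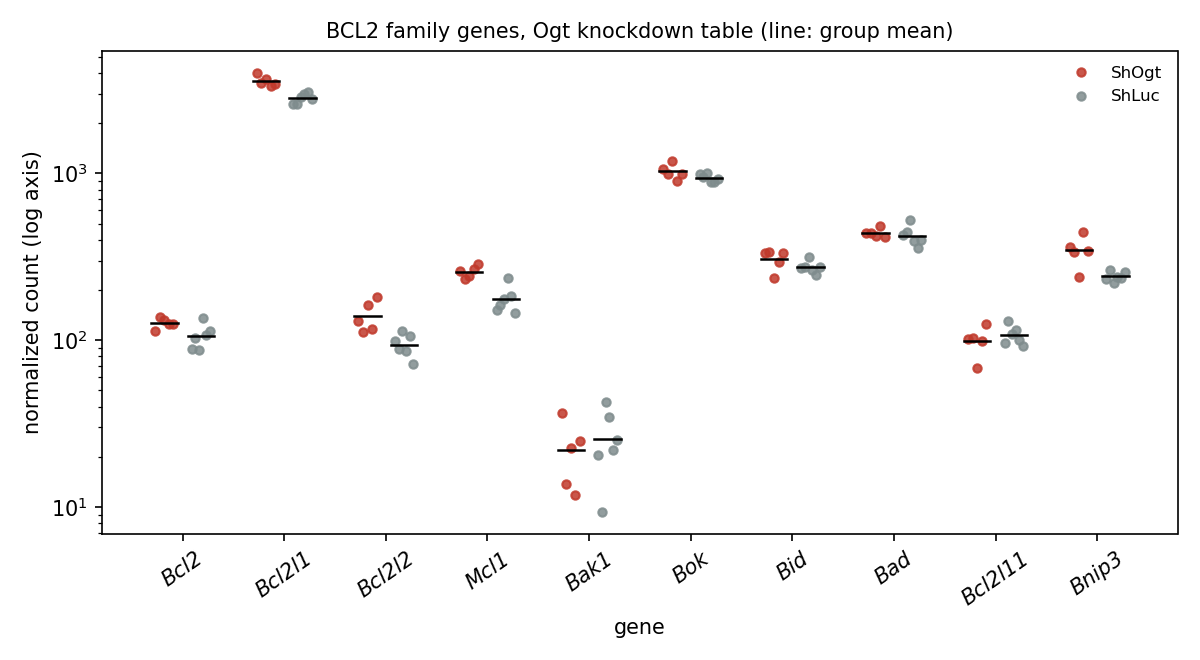
Normalized count (log axis) of each member in each ShOgt library (red) and ShLuc library (grey), with the group mean as a black line. Bcl2l1 is the member whose groups do not overlap, 3337 to 4004 in ShOgt and 2609 to 3062 in ShLuc, and Bnip3 spreads from 239 to 444 in ShOgt and from 221 to 263 in ShLuc.

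Of the effectors, Bok has an activity that is known to be less tied to the guardians, its protein being kept low through degradation at the endoplasmic reticulum. It lies on chr1:93685660-93695764 (plus strand). In the OSMI-1 table it stood at 254, 227, 287, 231 and 266 in OSMI-1, against 409, 472 and 531 in vehicle. All OSMI-1 libraries lay below all vehicle libraries, as 7.71% of all tested genes did (6.27% lay wholly above, 14.0% either way). The means were 253 ± 24.8 in OSMI-1 and 468 ± 42.9 in vehicle, so Bok fell by 45.8% (-0.88 ± 0.09, limma adjusted p = 2.8e-07). Leaving out any 1 library kept the adjusted p at or below 2.3e-06. In the authors' deposited table the log2 fold change, there given as vehicle over OSMI-1, was 0.88 with an adjusted p of 8.3e-17.

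In the knockdown table Bok was not called. It stood at 1066, 994, 1191, 907 and 989 in ShOgt, against 883, 942 and 1009 in ShLuc (0.12 ± 0.08, limma adjusted p = 0.28). The fold change after knockdown exceeded that after OSMI-1 by 1.00 ± 0.12 on the log2 scale (limma contrast over the 4 groups, adjusted p = 2e-07). Bok was the single member for which this difference passed, where 22.9% of the 11269 genes tested in both tables did.

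Bak1 encodes BAK, an effector that sits in the outer membrane and is held there by MCL1 and BCL-xL. It lies on chr17:27019810-27029009 (minus strand) and was the member with the fewest reads. It stood at 36.5, 13.8, 22.6, 11.7 and 25.0 in ShOgt, against 9.33, 23.5 and 42.5 in ShLuc (-0.19 ± 0.41, limma adjusted p = 0.76). After OSMI-1 it stood at 14.6, 7.10, 11.6, 10.7 and 10.3, against 12.9, 18.5 and 26.7 in vehicle. Each OSMI-1 library was below the vehicle mean, and OSMI-1 1 alone lay inside the vehicle range (-0.76 ± 0.33, limma adjusted p = 0.094). Every vehicle library held at least 11 reads of Bak1, whereas OSMI-1 2, 5 and 6 held 7, 9 and 9. Bak1 thus passed the filter on low counts in the OSMI-1 table through its vehicle values, which limits this test. Ggnbp1 on the opposite strand shares 614 exonic bases with Bak1.

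The BH3-only members passed in neither table. Bid, whose product is cut by caspase 8 and so couples death receptors to mitochondria, stood at 334, 336, 236, 293 and 333 in ShOgt, against 246, 273 and 315 in ShLuc (0.15 ± 0.12, limma adjusted p = 0.37). ShOgt 3 was lowest of all 11 libraries and 3 ShOgt libraries were above every ShLuc library. After OSMI-1 Bid stood at 184, 125, 150, 116 and 156, against 116, 124 and 142 in vehicle (0.18 ± 0.14, limma adjusted p = 0.36).

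Bad, whose product is held inactive by phosphorylation downstream of growth factors, stood at 437, 439, 422, 484 and 413 in ShOgt, against 357, 412 and 524 in ShLuc (0.06 ± 0.11, limma adjusted p = 0.72). After OSMI-1 it stood at 199, 248, 234, 221 and 223, against 142, 188 and 227 in vehicle. All OSMI-1 libraries were above the vehicle mean, with vehicle 1 at 227 and vehicle 2 at 211 reaching among them (0.32 ± 0.13, limma adjusted p = 0.080). Without vehicle 1 the difference passed (0.38, limma adjusted p = 0.033). Gpr137 on the opposite strand shares 524 exonic bases with Bad.

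Bcl2l11 encodes BIM, which binds every guardian and is induced by growth factor withdrawal. It stood at 101, 104, 67.8, 99.2 and 125 in ShOgt, against 91.7, 104 and 130 in ShLuc (-0.12 ± 0.18, limma adjusted p = 0.65). After OSMI-1 it stood at 87.5, 42.6, 50.8, 41.8 and 48.1, against 39.4, 56.3 and 88.8 in vehicle (-0.11 ± 0.23, limma adjusted p = 0.78). The highest library of each group was replicate 1 in the OSMI-1 table. The sign of both fold changes depended on 1 library: it was 0.01 without ShOgt 3 and 0.02 without vehicle 1.

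**Figure D3:**
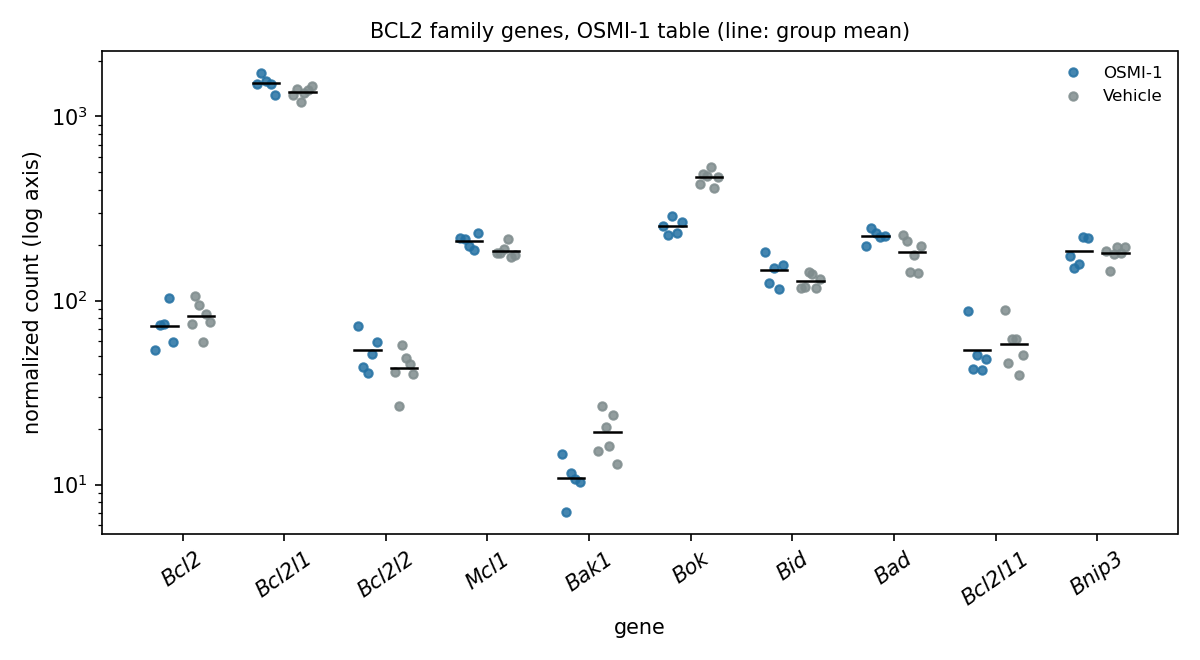
Normalized count (log axis) of each member in each OSMI-1 library (blue) and vehicle library (grey), with the group mean as a black line. Bok is the member whose groups do not overlap, 227 to 287 in OSMI-1 and 409 to 531 in vehicle.

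Bnip3, the mitochondrial autophagy receptor, lies on chr7:138890836-138909519 (minus strand) and shares 504 exonic bases with Gm45507 on the opposite strand. It stood at 365, 340, 239, 444 and 341 in ShOgt, against 221, 238 and 263 in ShLuc. Of the ShOgt libraries 4 lay above all ShLuc libraries and ShOgt 3 lay inside their range. The means were 346 ± 73.4 in ShOgt and 242 ± 15.7 in ShLuc (0.49 ± 0.14, limma adjusted p = 0.0093). With ShOgt 3 left out the log2 fold change was 0.62 (limma adjusted p = 0.00061). After OSMI-1 it stood at 175, 151, 158, 222 and 219, against 146, 183 and 196 in vehicle (0.02 ± 0.13, limma adjusted p = 0.92). The fold changes of the tables differed by 0.47 ± 0.19, which missed the threshold (limma contrast, adjusted p = 0.071), but passed without ShOgt 3 (0.012), vehicle 2 (0.042), OSMI-1 5 (0.041) or OSMI-1 6 (0.046). For Mcl1 the difference was 0.39 ± 0.17 (adjusted p = 0.095) and passed without ShLuc 4 (0.028).

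Divided by the length of the longest annotated transcript, the levels gave nearly the same order in each group. Among the 10 members Bcl2l1 was highest, at 1397 ± 103 normalized counts per kilobase in ShOgt and 1100.4 ± 72.1 in ShLuc. Bok followed at 701 ± 72.6 in ShOgt and 643 ± 35.4 in ShLuc, then Bad at 286 ± 18 in ShOgt and 277 ± 37.7 in ShLuc, and Bnip3 at 197 ± 41.8 in ShOgt and 138 ± 8.94 in ShLuc. These 4 were separated from each other in both groups, while the ranges of Bnip3 and Bid overlapped, as did those of Bcl2l11 and Bcl2. Mcl1, at 75.5 ± 6.04 in ShOgt and 51.5 ± 9.71 in ShLuc, was second among the guardians, and Bcl2, at 17.6 ± 1.23 in ShOgt and 14.8 ± 2.49 in ShLuc, was the lowest guardian in both. In ShLuc the ranges also overlapped between Bcl2l2 and Bcl2l11 and between Bcl2 and Bak1. Bak1 was last in every group. In the OSMI-1 table Bcl2l1 stood at 591 ± 57.8 per kilobase in OSMI-1 and 526.2 ± 37.5 in vehicle, and Bok at 172 ± 16.9 in OSMI-1 and 318 ± 29.2 in vehicle. Bok overlapped with Bad (147 ± 11.9) in OSMI-1 and was separate from it (119 ± 23.1) in vehicle. Mcl1 overlapped with Bid in both groups, Bad with Bnip3 in vehicle, and Bcl2l2, Bcl2l11 and Bcl2 with their neighbours among the 3 in both. The longest transcript need not be the one these cells use, so the order between genes is approximate.

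The promoters of Bnip3, a known target of the hypoxia-inducible factor HIF, and of Bcl2l1 and Bok, the members whose groups did not overlap in one of the tables, are shown with the oxygen-response core sequence. The sequences are from RefSeq (GRCm38.p6), 250 bases before to 50 after the 5′-most annotated start, and all 10 members matched. Capitals mark ACGTG or GCGTG on either strand; overlapping matches run together. Bnip3 is chr7:138909457-138909756 (minus strand), Bcl2l1 is chr2:152831679-152831978 (minus strand) and Bok is chr1:93685325-93685624 (plus strand).
Bnip3: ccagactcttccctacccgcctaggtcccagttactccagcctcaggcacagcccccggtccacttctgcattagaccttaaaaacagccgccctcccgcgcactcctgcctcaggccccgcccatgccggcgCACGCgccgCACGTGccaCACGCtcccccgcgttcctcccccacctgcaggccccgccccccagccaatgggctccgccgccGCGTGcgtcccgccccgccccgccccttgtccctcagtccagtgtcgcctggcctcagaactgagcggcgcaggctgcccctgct
Bcl2l1: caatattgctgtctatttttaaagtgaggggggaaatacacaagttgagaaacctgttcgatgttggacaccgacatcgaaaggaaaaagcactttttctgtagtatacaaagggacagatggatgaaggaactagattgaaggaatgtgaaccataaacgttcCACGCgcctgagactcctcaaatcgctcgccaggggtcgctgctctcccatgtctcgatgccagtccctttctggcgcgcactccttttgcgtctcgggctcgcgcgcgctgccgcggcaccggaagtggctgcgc
Bok: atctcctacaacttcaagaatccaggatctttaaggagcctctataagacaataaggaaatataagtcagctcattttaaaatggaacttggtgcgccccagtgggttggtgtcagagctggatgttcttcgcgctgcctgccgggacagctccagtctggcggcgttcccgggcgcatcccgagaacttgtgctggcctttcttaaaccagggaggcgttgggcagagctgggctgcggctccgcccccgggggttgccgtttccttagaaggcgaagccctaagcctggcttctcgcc

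The Bnip3 promoter held 5 matches to the HIF core, at positions -117, -108, -107, -99 and -35 from the start, of which those at -108 and -107 are the palindrome read on both strands. Bcl2l1 held 1, at -86, and Bok held 0. Bad and Bcl2l11 held matches too, so 4 of 10 members did, where 43.8% of 32851 promoters of the same length did. The STAT motif TTCNNNGAA was found in 0 of 10 member promoters (8.30% of all), and the E2F motifs TTTCGCGC or TTTGGCGC in 0 of 10 (0.813% of all). The absence of these letters in a window of 300 bases says nothing of other positions.

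A 7-base word, AACATGC, marked 3′UTRs whose genes fell more often after knockdown: 27.1% of the 1342 tested carriers were called lower, against 15.5% of non-carriers (after OSMI-1, 11% and 13.7%). It was known from earlier results of these data and is no independent observation. Among the members 2 of 10 carry it, where 11.8% of 11366 tested genes do, and both are guardians. Bcl2l2 (chromosome 14) and Mcl1 (chromosome 3) are shown with the word in capitals and 9 bases on each side, as read from the transcripts.
Bcl2l2: caggttaccAACATGCtctgctagc
Mcl1: cagggaaaaAACATGCagtcttcaa
Both carriers were among the 4 members that rose.

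Other genes of the family, 16 listed, included 6 that passed the filter in the knockdown table and 5 in the OSMI-1 table. Bbc3 passed through its ShOgt values and is left out of the counts. Of the other 5 genes 2 were higher and 1 lower after knockdown, with a median log2 fold change of 0.14. Over all tested genes 15.4% were higher and 16.4% lower. Bax, the effector that moves to mitochondria from the cytosol, stood at 6765, 6343, 7628, 6369 and 5508 in ShOgt, against 3817, 4344 and 5346 in ShLuc, with no overlap (0.54 ± 0.09, limma adjusted p = 0.00017). Pmaip1 encodes NOXA, the BH3-only protein that targets MCL1. It stood at 284, 280.1, 319, 260.4 and 346 in ShOgt, against 141, 168 and 201 in ShLuc, again with no overlap (0.80 ± 0.13, limma adjusted p = 0.00013). Mcl1 and the gene of this antagonist were thus both higher in ShOgt.

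Bbc3, which encodes the BH3-only protein PUMA, stood at 21.3, 19.7, 19.8, 22.4 and 20.8 in ShOgt, against 4.03, 8.90 and 14.96 in ShLuc. These are at most 24 reads in a library. The log2 fold change was 1.28 ± 0.42 (limma adjusted p = 0.025). Because Bbc3 passed the filter through its ShOgt values, this p-value is no support for a rise. Leaving out ShLuc 6 (0.053), ShOgt 1 (0.056) or ShOgt 5 (0.052), or the filter on low counts (0.051), ended the call. Bcl2l13, a mitochondrial autophagy receptor of the family, fell: it stood at 602, 575, 463, 521 and 438 in ShOgt, against 526.1, 748 and 845 in ShLuc (-0.47 ± 0.12, limma adjusted p = 0.0045). ShLuc 3, at 526.1, was the one ShLuc library among the ShOgt values. Bcl2l13 also carries AACATGC, and its exons share 628 bases with Bid on the opposite strand. Bnip3l, the paralogue of Bnip3 and another carrier of AACATGC, stood at 1757 ± 162 in ShOgt and 1599 ± 135 in ShLuc (0.14 ± 0.08, limma adjusted p = 0.22) and passed without the 3 libraries that stood apart (0.22, limma adjusted p = 0.021). Bcl2l12 stood at 102 ± 17.8 in ShOgt and 127 ± 13.8 in ShLuc and was not called (limma adjusted p = 0.14).

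After OSMI-1, 3 of the 5 were higher and 0 lower, with a median log2 fold change of 0.24. Over all tested genes 11.6% were higher and 13.2% lower. Bnip3l stood at 1111, 1025, 1072, 1019 and 1086 in OSMI-1, against 819, 892 and 966 in vehicle, with no overlap (0.24 ± 0.07, limma adjusted p = 0.011). Bax stood at 2061, 2408, 2446, 2503 and 2998 in OSMI-1, against 1950, 2079 and 2170 in vehicle (0.24 ± 0.08, limma adjusted p = 0.020), and the call was lost without OSMI-1 6 (0.078). Bcl2l13 averaged 419.9 ± 35.9 in OSMI-1 and 352 ± 26.6 in vehicle (0.25 ± 0.09, limma adjusted p = 0.041). That call was lost without vehicle 1, 2, 4 or 5 or OSMI-1 1, 2, 4 or 6, with the adjusted p reaching 0.101. The direction of Bcl2l13 thus differed between the tables, by -0.73 ± 0.15 (limma contrast, adjusted p = 0.00046). Pmaip1 averaged 224 ± 50.1 in OSMI-1 and 177 ± 26.2 in vehicle (0.33 ± 0.14, limma adjusted p = 0.097), and passed without OSMI-1 4 (0.020). Bcl2l12 averaged 37.3 ± 6.33 in OSMI-1 and 53.5 ± 13.5 in vehicle (-0.49 ± 0.21, limma adjusted p = 0.099).

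**Figure D4:**
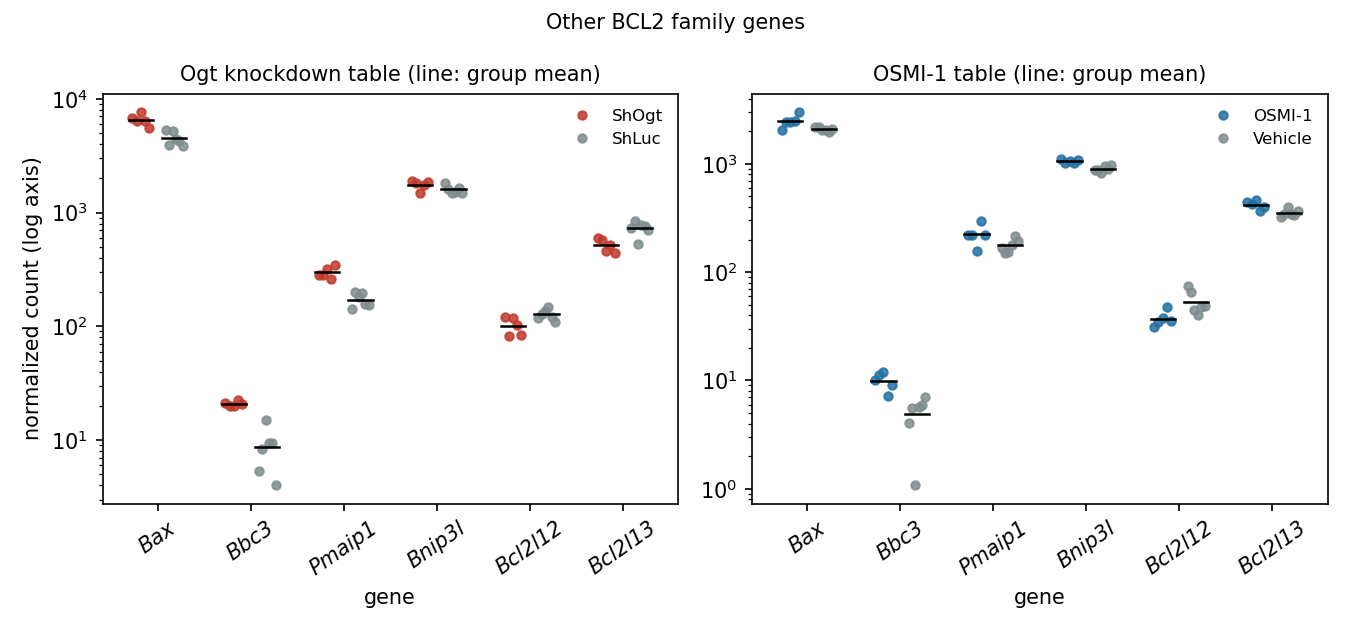
Normalized count (log axes, 1 panel per table) of 6 further BCL2 family genes in each library, ShOgt (red) and ShLuc (grey) on the left and OSMI-1 (blue) and vehicle (grey) on the right, with group means as black lines. Bax and Pmaip1 separate in the knockdown panel (Pmaip1 260.4 to 346 in ShOgt, 141 to 201 in ShLuc), and Bcl2l13 is lower in ShOgt and higher in OSMI-1 than in its own control.

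Around the family, the list of Trp53 and p53 targets of the apoptotic route had the most calls. The lists were chosen with earlier results of these data known, so this rank is a description. Trp53 itself was not called after knockdown (-0.05 ± 0.06, limma adjusted p = 0.63) or after OSMI-1 (-0.19 ± 0.09, limma adjusted p = 0.15). With Bbc3 again left out, 9 of the 13 genes in the list were higher and 1 lower after knockdown (median log2 fold change 0.54). Over all tested genes 15.4% were higher and 16.4% lower. Bax and Pmaip1 belong to this list as well, so the counts are not separate. Mdm2, the ligase that limits p53, averaged 1764 ± 133 in ShOgt and 1119.6 ± 70.5 in ShLuc (0.65 ± 0.08). The death receptors Tnfrsf10b and Fas averaged 387 ± 36.5 and 272 ± 43.8 in ShOgt, against 203 ± 31.4 and 136 ± 14.8 in ShLuc (0.94 ± 0.13 and 0.99 ± 0.14; all 3 with a limma adjusted p at or below 2.5e-05). After OSMI-1, 7 of 13 were higher and 0 lower (median 0.27), beside 11.6% and 13.2% of all genes. Mdm2 averaged 1068 ± 37.8 in OSMI-1 and 775 ± 61.4 in vehicle (0.46 ± 0.07), and Tnfrsf10b 175 ± 30.7 in OSMI-1 and 112 ± 16.1 in vehicle (0.64 ± 0.14). Trp53inp1 averaged 952 ± 93.0 in OSMI-1 and 741 ± 45.3 in vehicle (0.36 ± 0.08) and the zinc finger gene Zmat3 614 ± 38.3 in OSMI-1 and 480.3 ± 46.6 in vehicle (0.36 ± 0.08); the largest limma adjusted p of these 4 was 0.0031.

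Of 9 tested genes of the death receptor route 4 were higher and 0 lower after knockdown (median 0.15), beside 15.4% and 16.4% of all genes. Tnfrsf10b and Fas, above, were among them, and so was Cflar, which encodes the caspase 8 inhibitor FLIP (325 ± 26.2 in ShOgt and 216 ± 35.2 in ShLuc, 0.60 ± 0.13, limma adjusted p = 0.0012). The adaptor Tradd averaged 214 ± 14.6 in ShOgt and 131 ± 17.1 in ShLuc (0.72 ± 0.14, limma adjusted p = 0.00049). After OSMI-1, 2 of 8 were higher and 1 lower (median 0.12), beside 11.6% and 13.2% of all genes. The higher ones were Tnfrsf10b and Fas (Fas 197 ± 33.3 in OSMI-1 and 135 ± 21.6 in vehicle, 0.54 ± 0.14, limma adjusted p = 0.008). The lower one, the TNF receptor gene Tnfrsf1a (287 ± 72.2 in OSMI-1 and 369 ± 49.3 in vehicle, -0.39 ± 0.14, limma adjusted p = 0.045), missed the threshold in edgeR (0.056). It was also lost without vehicle 2, 3, 4, 5 or 6 or OSMI-1 5 or 6, with the adjusted p reaching 0.155.

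Downstream of the membrane, 3 of 18 tested genes of the apoptosome, the caspases and their inhibitors were higher and 5 lower after knockdown (median -0.13). Over all tested genes 15.4% were higher and 16.4% lower. The caspase gene Casp6 averaged 436 ± 21.5 in ShOgt and 177 ± 31.7 in ShLuc (1.31 ± 0.13, limma adjusted p = 3.8e-07). Vdac2, the membrane channel that recruits BAK, averaged 2831 ± 188 in ShOgt and 3402 ± 217 in ShLuc (-0.26 ± 0.07, limma adjusted p = 0.0046). Dffa, the inhibitor of the caspase-activated nuclease, averaged 175 ± 25.4 in ShOgt and 114 ± 17.1 in ShLuc (0.61 ± 0.16, limma adjusted p = 0.0057). After OSMI-1, 0 of 18 were higher and 4 lower (median 0.06), beside 11.6% and 13.2% of all genes. Among the lower ones were the initiator caspase gene Casp2 (146 ± 20.6 in OSMI-1 and 224 ± 9.19 in vehicle, -0.62 ± 0.11), Aifm1 for apoptosis-inducing factor (386 ± 20.5 in OSMI-1 and 487 ± 42.3 in vehicle, -0.33 ± 0.09) and the outer membrane channel gene Vdac1 (1597 ± 143 in OSMI-1 and 1824 ± 115 in vehicle, -0.19 ± 0.07). Casp2 and Aifm1 had a limma adjusted p at or below 0.0059. Vdac1 (limma adjusted p = 0.046) was lost without vehicle 2, 3, 4 or 5 or OSMI-1 1, 4, 5 or 6, with the adjusted p reaching 0.128.

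Of 16 genes for the turnover and partners of BCL2 family proteins 3 were higher and 2 lower after knockdown (median -0.10), and 3 higher and 2 lower after OSMI-1 (median -0.02). These counts lay near the shares over all tested genes, 15.4% higher and 16.4% lower after knockdown and 11.6% and 13.2% after OSMI-1. Fbxw7, which encodes a ligase that marks MCL1 for degradation, averaged 627 ± 83.1 in ShOgt and 358 ± 70.3 in ShLuc (0.82 ± 0.14, limma adjusted p = 0.0002). It averaged 279.9 ± 42.7 in OSMI-1 and 194 ± 33.1 in vehicle (0.54 ± 0.13, limma adjusted p = 0.0044). Tmbim6, BAX inhibitor 1, averaged 20349 ± 462 in ShOgt and 18213 ± 808 in ShLuc (0.16 ± 0.05, limma adjusted p = 0.017, or 0.077 with no filter on low counts), and 6948 ± 422 in OSMI-1 and 5722 ± 561 in vehicle (0.28 ± 0.07, limma adjusted p = 0.0037). Ywhaz and Ywhae encode adaptor proteins that hold phosphorylated BAD in the cytosol. Ywhaz, a carrier of AACATGC, averaged 9223 ± 744 in ShOgt and 11629 ± 713 in ShLuc (-0.34 ± 0.06, limma adjusted p = 0.00044), and Ywhae 3492 ± 233 in OSMI-1 and 4033 ± 140.5 in vehicle (-0.21 ± 0.06, limma adjusted p = 0.013). The co-chaperone gene Bag4 averaged 29.4 ± 16.2 in ShOgt and 67.9 ± 33.5 in ShLuc (-1.19 ± 0.36, limma adjusted p = 0.014). Bag3 averaged 221 ± 33.5 in OSMI-1 and 281 ± 27.1 in vehicle (-0.35 ± 0.11, limma adjusted p = 0.024), a call lost without vehicle 2 or 4 or OSMI-1 4, 5 or 6 (up to 0.066).

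The genes that respond to low oxygen, among which Bnip3 is usually counted, were called in both directions, with counts near the shares over all tested genes. After knockdown 2 of 12 were higher and 1 lower (median 0.10), beside 15.4% and 16.4% of all genes. The peptide hormone gene Adm averaged 3380 ± 316 in ShOgt and 2077 ± 188 in ShLuc (0.70 ± 0.08), and Ndrg1 112 ± 23.3 in ShOgt and 46.9 ± 19.1 in ShLuc (1.32 ± 0.27). Lactate dehydrogenase gene Ldha, a carrier of AACATGC, averaged 15567 ± 2155 in ShOgt and 38291 ± 2176 in ShLuc (-1.31 ± 0.08; all 3 with a limma adjusted p at or below 0.0011). After OSMI-1, 2 of 11 were higher and 2 lower (median 0.01), beside 11.6% and 13.2% of all genes. P4ha1, a collagen hydroxylase subunit, averaged 774 ± 78.2 in OSMI-1 and 569.9 ± 29.5 in vehicle (0.44 ± 0.08, limma adjusted p = 0.00028), and the histone demethylase gene Kdm3a 340.02 ± 34.1 in OSMI-1 and 268 ± 31.3 in vehicle (0.35 ± 0.10, limma adjusted p = 0.017). The glucose transporter gene Slc2a1 averaged 129 ± 21.4 in OSMI-1 and 185 ± 24.6 in vehicle (-0.52 ± 0.13, limma adjusted p = 0.0058). Ndrg1 averaged 26.5 ± 13.6 in OSMI-1 and 47.1 ± 12.3 in vehicle (-0.93 ± 0.31, limma adjusted p = 0.029) but missed the threshold in edgeR (0.063). It was also lost without vehicle 3, 5 or 6 or OSMI-1 1, 2 or 5 (up to 0.097).

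In the mitophagy list, which holds Bnip3l beside other receptors and adaptors, 5 of 11 genes were higher and 2 lower after knockdown (median 0.30), and 3 higher and 1 lower after OSMI-1 (median 0.22). Over all tested genes 15.4% were higher and 16.4% lower after knockdown, and 11.6% and 13.2% after OSMI-1. Sqstm1, the p62 adaptor, averaged 6196 ± 177 in ShOgt and 4782 ± 347 in ShLuc (0.38 ± 0.06). The kinase gene Pink1 averaged 271 ± 68.4 in ShOgt and 153 ± 25.8 in ShLuc (0.81 ± 0.17), and Gabarapl1, of the ATG8 family, 1789 ± 125 in ShOgt and 1428 ± 116 in ShLuc (0.33 ± 0.08). Phb2, an inner membrane receptor, averaged 3071 ± 195 in ShOgt and 3695 ± 141 in ShLuc (-0.27 ± 0.06; all 4 with a limma adjusted p at or below 0.0026). Map1lc3b averaged 2341 ± 173 in OSMI-1 and 1621 ± 181 in vehicle (0.53 ± 0.08, limma adjusted p = 1.8e-05), and Gabarapl1 806 ± 101 in OSMI-1 and 635 ± 48.9 in vehicle (0.34 ± 0.09, limma adjusted p = 0.0059). After knockdown Map1lc3b was instead lower, at 3323 ± 241 in ShOgt and 3947 ± 353 in ShLuc (-0.25 ± 0.07, limma adjusted p = 0.012). Phb2 averaged 1280.2 ± 95.4 in OSMI-1 and 1477 ± 87.4 in vehicle (-0.21 ± 0.07, limma adjusted p = 0.031), a call lost without vehicle 1, 2, 4 or 6 or OSMI-1 1, 4 or 5 (up to 0.081).

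The genes whose values ran most like those of the leading member in each table were sought among those with a mean normalized count of at least 100, over the 11 libraries of the table. For Bcl2l1 in the knockdown table they were Itfg3 (Pearson r = 0.97), the sphingosine kinase gene Sphk1 (0.96) and the RNA-binding protein gene Pcbp4 (0.96), of 8459 genes. For Bok in the OSMI-1 table they were Mcm7 (0.98), a subunit of the replicative helicase, Dpysl3 (0.97), of the collapsin response mediators, and Cenpa (0.97), the centromeric histone, of 7069 genes. Cenpa averaged 257 ± 14.8 in OSMI-1 and 816 ± 60.7 in vehicle. These correlations include the difference between the groups and share libraries and size factors, and are a description.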

How the data were processed

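The authors deposited 1 table per experiment; per the submitters' processing notes, reads were handled with STAR, RSEM and DESeq2 (no versions), and the build named there is human (hg38) although the tables carry mouse symbols. Per the labels the kit was a strand-specific mRNA kit; the design text names Smart-Seq2 instead, and which holds was not settled. Per the file headers, each table holds normalized counts per library (a signal: counts divided by a size factor), a log2 fold change with its standard error, a Wald score, and p-values with their adjusted form. The deposited log2 fold change was found from the values to run ShOgt over ShLuc, and vehicle over OSMI-1.

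In every library 100% of values above 0 came out whole (tolerance 0.001) once divided by the smallest step, which gave back the reads. Genes were kept by filterByExpr (minimum count 10, minimum total 15): 12136 genes after knockdown and 11349 after OSMI-1, with all 10 members in both. The main test was limma 3.58.1 with a trend on log2(normalized count + 1), R 4.3.3, no covariates, since the labels give no batch; this scale understates changes of low genes. edgeR 4.0.16 (3848 and 2804 genes called) and DESeq2 1.42.0 (4063 and 2964) were run on recovered reads, and steps were tested on simulated data. No 2 libraries agreed within sampling noise (smallest chi-square per degree of freedom 5.78 and 3.72). Gene positions and transcript lengths are from GENCODE on GRCm38. The members and lists were chosen with earlier results of these data known. Named genes were all members, the other family genes that were kept, Ogt, up to 4 called genes with the smallest p per list and table, and the 3 genes most correlated with the leading member. Few reads limit the precision of Bak1 and Bbc3. Some genes of the caspase list are counted but not reported singly here.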

Additional observations from a re-analysis of the deposited data

Results flagged for a closer look

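Of 64 groups of values examined for a single library far from the rest, 2 were marked, and chance marks about 1 in 20. Bcl2l11 stood at 87.5 normalized counts in OSMI-1 replicate 1, with the nearest other OSMI-1 library at 50.8, and vehicle replicate 1 was the highest vehicle library for this gene at 88.8. Bnip3 stood at 146 in vehicle replicate 2, with the nearest other vehicle library at 179.

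The fold changes of 2 family genes differed between the tables by a direct test (limma contrast over the 4 groups). For Bok, ShOgt over ShLuc exceeded OSMI-1 over vehicle by 1.00 on the log2 scale (adjusted p = 2e-07), and leaving out any 1 library gave 0.95 to 1.05. For Bcl2l13 the difference was -0.73 (adjusted p = 0.00046), and leaving out any 1 library gave -0.82 to -0.67. The experiments differ in agent, duration, lentivirus and normalization, which cannot be told apart from the way OGT was targeted.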

How the results depend on the processing

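After knockdown 4 members were called under each of edgeR, DESeq2, TMM scaling, pseudocounts of 0.5 and 5, no filter, a mean of at least 50, and without the libraries that stood apart; leaving out 1 library gave 3 to 4 members and 3209 to 3893 genes, the member lost being Bcl2l2. After OSMI-1, 1 member was called under those settings, except for 2 without the libraries that stood apart (Bad, 0.39, adjusted p = 0.047); leaving out 1 library gave 1 to 2 members and 2427 to 2671 genes. The fold change differed between tables for 1 member, for 2 under the normal test (Bnip3, adjusted p = 0.048), and for 1 to 2 leaving out 1 library. Signs turned only for members that were not called: leaving out 1 library, Bcl2l11 ranged from -0.21 to 0.00663 after knockdown and from -0.29 to 0.0242 after OSMI-1, and Bnip3 from -0.0461 to 0.0920 after OSMI-1. Without the libraries that stood apart the OSMI-1 values were 0.10 for Bcl2l11 and -0.0361 for Bnip3. The difference between tables ranged from -0.15 to 0.17 for Bcl2l11 and from -0.11 to 0.0603 for Bid. The causes were not tested. Same-numbered libraries shared little of their deviations (correlations of -0.0086 to 0.161 after knockdown and -0.099 to 0.051 after OSMI-1). Replicate 3 of the knockdown table had the highest value (0.161), and ShOgt 3 was most like ShLuc 3. Both libraries also lay together on the third principal component (-34.0 and -33.6). With the replicate block 4 and 1 members and 3954 and 2376 genes were called, and the difference still passed for 1 member. Among the other named genes the block ended the calls of Bbc3 after knockdown (adjusted p = 0.055) and, after OSMI-1, of Bcl2l13 (0.051), Bnip3l (0.062), Kdm3a (0.073), Tnfrsf1a (0.087) and Vdac1 (0.11). Depth limits Bak1 and Bbc3 most.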
